A study of Mus musculus with 32 samples.

Results

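Cx3cr1 encodes the fractalkine receptor, and it was the locus through which the microglia of the series were marked for sorting. It was taken by its symbol, which a deposited comparison table pairs with the identifier ENSMUSG00000052336.7, and is 1 gene of the 55385 listed. Fractalkine is a chemokine that neurons carry on a membrane stalk and from which proteases release a soluble form. Its receptor couples to inhibitory G proteins and, in the brain, is known from microglia, where it takes part in contact between neurons and microglia. Because microglia use the gene strongly, alleles inserted there are a common way to label them.

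Libraries were made from EYFP-positive cells that were sorted out of the cerebral cortex of adult C57BL/6 mice around a stab wound, or from the equivalent place in the opposite, non-injured hemisphere. Cells came from females and males on days 1, 4, 7 and 14 after the wound, and each of the 16 combinations was deposited as 2 columns. All mice of both sides carried the Cx3cr1CreER allele in the heterozygous state, and all had received tamoxifen at 180 mg/kg on 5 days from an age of 8 to 10 weeks to switch on EYFP before the wound. No mouse with 2 unmodified copies of Cx3cr1 is among these samples, so the level given here is that of heterozygous animals, and reads of the 2 alleles cannot be told apart. The contralateral hemisphere comes from wounded animals and is not tissue of unwounded mice. The series design names 2 biological replicates, and the titles number the 2 columns of each group as replicates. Yet the columns differed by little more than counting noise. The median chi-square per gene between the columns was between 0.475 and 0.639, where counting noise alone gives 0.455, against 31.5 to 113 between females and males. The 2 columns were therefore summed, which left 16 libraries in 8 day-by-sex pairs of a wound and a non-injured library. The labels tie no sample to an animal, so p-values measure only the spread between these samples, which may be technical.

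Total counts ran from 20863982 to 55378788 per summed library, with 14737 to 40975 genes detected. Mitochondrial transcripts took 0.697% to 25.7% of counts, with the highest share in the day 4 male non-injured library and at most 6.89% at the wound. Markers of microglia were abundant throughout, and the 10 listed genes summed to 8029 to 38340 CPM at the wound against 9892 to 70800 CPM on the non-injured side. CPM are counts relative to the library total after scaling by its TMM factor, which adjusts for RNA composition. TPM, which the authors deposited, also take gene length into account. In bulk RNA, fewer cells of a type and less RNA per cell cannot be told apart.

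In the GENCODE M21 annotation of GRCm38, Cx3cr1 spans chromosome 9 from 119901616 to 120069879 on the minus strand, with 3 coding transcripts that each hold 1062 coding bases. The transcript ENSMUST00000064165.4 has 2 exons, of which the first, from 120068205 to 120068296, is noncoding and the second, from 120048683 to 120052343, holds the whole reading frame. The start of that first exon lies in the RefSeq promoter window of the gene, which covers 250 bases before the start site and 50 bases after it (GRCm38.p6, chr9:120068247-120068546, minus strand). It is printed with the windows of P2ry12 (chr3:59262936-59263235, minus strand) and C5ar1 (chr7:16259289-16259588, minus strand), since these are the receptors against which Cx3cr1 shifted most between the sides. Capitals mark matches to the CCAAT box, and each window reads 5′ to 3′ on the strand of its gene.
Cx3cr1: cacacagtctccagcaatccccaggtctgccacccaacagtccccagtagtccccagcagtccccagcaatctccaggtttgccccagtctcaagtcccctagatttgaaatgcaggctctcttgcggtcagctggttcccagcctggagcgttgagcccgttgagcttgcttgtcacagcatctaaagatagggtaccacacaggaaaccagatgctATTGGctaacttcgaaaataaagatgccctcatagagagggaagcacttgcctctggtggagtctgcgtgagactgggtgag
P2ry12: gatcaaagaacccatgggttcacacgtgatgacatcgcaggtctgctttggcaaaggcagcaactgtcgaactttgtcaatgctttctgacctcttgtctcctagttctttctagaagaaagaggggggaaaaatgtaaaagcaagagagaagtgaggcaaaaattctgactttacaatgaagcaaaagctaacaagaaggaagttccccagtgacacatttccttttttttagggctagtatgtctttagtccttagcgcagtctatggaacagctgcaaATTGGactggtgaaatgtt
C5ar1: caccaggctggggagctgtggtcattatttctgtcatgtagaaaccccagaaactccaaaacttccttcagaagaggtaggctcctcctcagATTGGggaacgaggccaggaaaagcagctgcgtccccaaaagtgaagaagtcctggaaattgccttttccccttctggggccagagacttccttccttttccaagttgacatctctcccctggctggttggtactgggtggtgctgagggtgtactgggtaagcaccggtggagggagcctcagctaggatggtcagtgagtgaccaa
Each window held 1 match to CCAAT, in reverse orientation in all 3, and it began 32 bases before the start site of Cx3cr1, 158 bases before that of C5ar1 and at base 32 after that of P2ry12. Of 32851 windows of this length, 37.4% hold CCAAT on either strand. No other match was found in the 3 windows among the motifs searched on both strands, which were the PU.1-type core GAGGAA (in 28.3% of windows), the AP-1 site TGANTCA (7.81%), the TATA box TATAAA (13.6%) and the interferon regulatory factor element (3.44%). These matches describe letters only.

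Cx3cr1 was detected in all 16 libraries, with 78 to 8359 counts. Its level differed far more between pairs than between the sides of a pair. At day 1, TPM were 2.74 at the wound against 10.1 on the non-injured side in females, and 8.18 against 19.9 in males. At day 4, females had the highest level of the series, 51.6 TPM at the wound against 52.2 TPM on the non-injured side, while males had 0.984 against 2.16 TPM. On both sides of the brain, day 4 females thus stood far above day 4 males. At day 7, females had 5.47 TPM at the wound against 15.85 TPM on the non-injured side, and males had the lowest level of the series, 0.51 against 1.74 TPM. At day 14, the values were 14.4 TPM at the wound against 25.1 TPM on the non-injured side in females, and 8.8 against 16.2 TPM in males. Within every pair the wound library had the lower TPM, by a narrow margin in the day 4 females, but over the 8 libraries of each side the ranges overlapped almost completely.

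**Figure D1:**
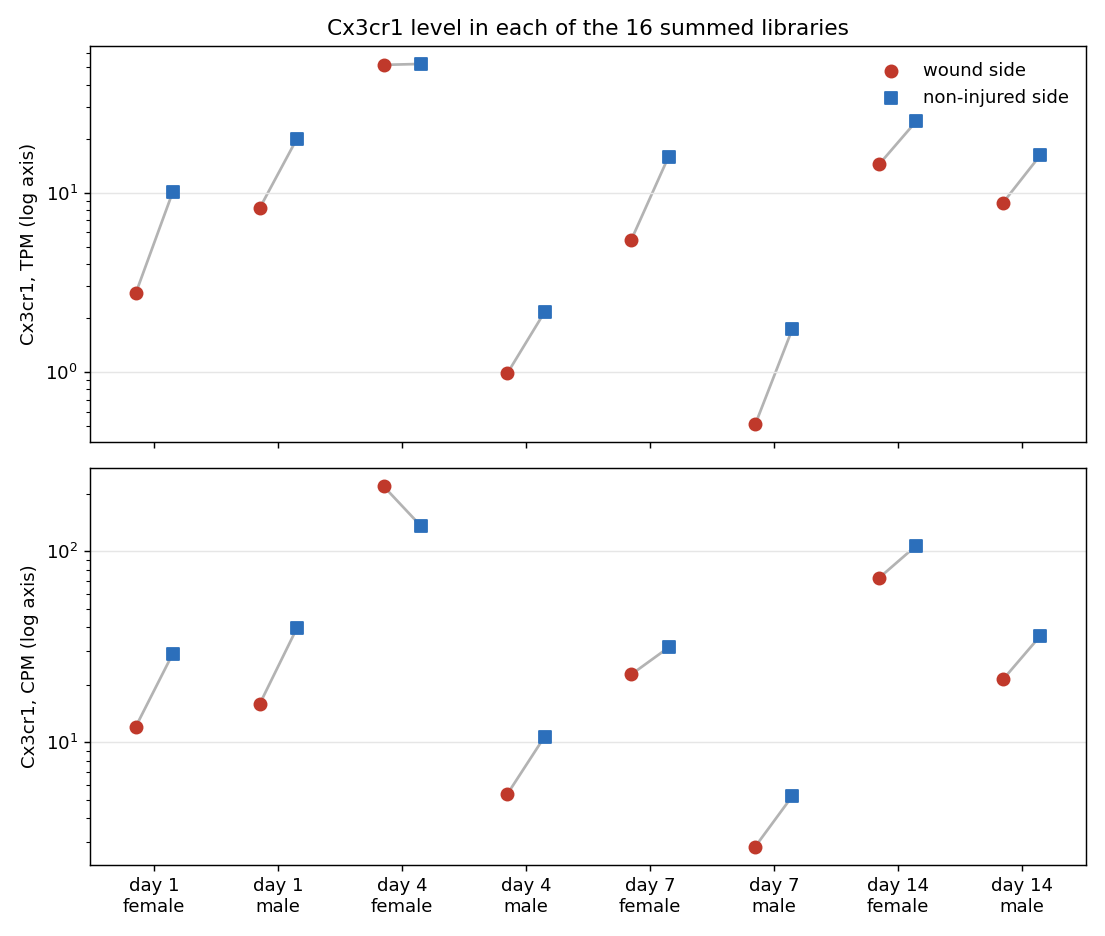
Cx3cr1 level in each of the 16 summed libraries, in TPM (upper panel) and CPM (lower panel), both on log axes, with wound libraries as circles and non-injured libraries as squares and a line joining the libraries of 1 pair. TPM run from 0.51 in the day 7 male wound library to 52.2 in the day 4 female non-injured library, and the sides of a pair lie close to each other compared with the distance between pairs.

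At the wound the level averaged 11.59 ± 16.83 TPM (SD, n = 8; median 6.82), and on the non-injured side 17.91 ± 16.09 TPM (SD, n = 8; median 16.01). Without the day 4 female library of each side the means were 5.87 TPM at the wound and 13 TPM on the other side. In CPM the wound libraries lay between 2.84 and 219 (mean 46.45 ± 73.05, SD, n = 8; median 18.6), and the non-injured ones between 5.23 and 135.9 (mean 49.37 ± 46.73, SD, n = 8; median 33.7). The wound mean is held up by 1 library: without the day 4 female libraries it was 21.8 CPM, against 37.0 CPM on the non-injured side. Counting error is small beside this spread. The day 7 male wound library, the lowest, held 78 reads of Cx3cr1, or 2.01 CPM of its unscaled total (95% Wilson interval 1.61 to 2.5), and the day 4 female wound library held 8359, or 150.9 CPM (147.7 to 154.2). These intervals cover counting error only.

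The sides of a pair moved together, in a correlation added after values were seen. Its 2 tests are the same 8 pairs in TPM and in CPM, so the adjustment does not cover that choice. Over the 8 pairs, log2 TPM at the wound and on the non-injured side correlated at Pearson's r = 0.975 (exact permutation p = 7.44e-05, adjusted over 2 tests 0.000149) and Spearman's rho = 0.976 (exact permutation p = 0.000397, adjusted 0.000794). Without the day 4 male and day 7 male pairs, the farthest from the median, r was 0.987 (exact permutation p = 0.00417). In CPM, r was 0.965 (exact permutation p = 0.00122, adjusted 0.00122) and rho 0.905 (exact permutation p = 0.00456, adjusted 0.00456), and r was 0.962 without the day 4 female and day 7 male pairs (exact permutation p = 0.0222). The geometric mean of a pair ran from 0.942 TPM in day 7 males to 51.9 TPM in day 4 females, a 55.2-fold range. The 2 libraries of a pair share day, sex and possibly animals and handling, which cannot be told apart here. Beside this, Spearman's rho of Cx3cr1 CPM over the 16 libraries, which are not independent within a pair, was -0.247 with the mitochondrial share, 0.168 with the number of genes detected and 0.141 with the total count. Among the 8 non-injured libraries alone it was -0.5 with the mitochondrial share. The part of these measures in the level was not tested.

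The comparison between the sides asked whether microglia at the wound hold less of the receptor's RNA than those of the other hemisphere. Its direction was lower at the wound, and whether it passed the test depended on the method. Averaged over the 4 days, edgeR's quasi-likelihood fit gave a log2 difference of -0.65 (SE 0.23, Benjamini-Hochberg adjusted p = 0.0901), so Cx3cr1 was not called, in a comparison that called 15.7% of 28597 genes tested, 7.76% of all as higher and 7.96% as lower. The log2 ratio of CPM had a mean of -0.70 ± 0.64 (SD, n = 8), with 7 of 8 pairs below 0 and a two-sided p of 0.0312 by exact sign flips. The log2 ratio of TPM, with 1 added, had a mean of -0.91 ± 0.48 (SD, n = 8), with 8 of 8 pairs below 0 and a two-sided p of 0.00781 by exact sign flips, the smallest that 8 pairs can give. The median over the 9025 genes with a mean of at least 10 CPM moved with the scale, by 0.20 in CPM and -0.26 in TPM on average over pairs. Relative to the median of those genes, the CPM ratio of Cx3cr1 averaged -0.90 ± 0.55 (SD, n = 8, exact two-sided sign-flip p = 0.0156) and was below 0 in 7 of 8 pairs. Over all 28597 genes tested, with weakly expressed ones included, the median log2 difference in edgeR was -0.32, nearer to the -0.65 of Cx3cr1. The difference passed an adjusted p of 0.05 with median-ratio scaling (log2 -0.81, adjusted p = 0.0264), in DESeq2 (-0.83, adjusted p = 0.00136) and in limma on log2(TPM + 1) (-0.91, adjusted p = 0.0144). It did so in edgeR without the day 4 female pair (-0.92, adjusted p = 0.02) and without the day 14 female pair (-0.77, adjusted p = 0.0408), and was -0.47 (adjusted p = 0.21) without the day 4 male pair, whose non-injured library has the high mitochondrial share.

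The day 4 female pair was the exception. Its log2 ratio was 0.69 in CPM and -0.02 in TPM, while the other 7 pairs ran from -1.32 to -0.47 in CPM and from -1.57 to -0.67 in TPM. Without TMM factors, that pair had 150.9 CPM at the wound against 146.7 CPM on the non-injured side. The TMM factors were 0.689 for the wound library and 1.08 for the non-injured one. Its TPM ratio was near 0. Factors lay farther apart in the day 7 pairs, at 0.719 for the wound against 1.45 in females and 0.706 against 1.25 in males. Without them, day 7 females had 16.28 CPM at the wound against 45.41 CPM, and day 7 males 2.01 against 6.54 CPM.

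**Figure D2:**
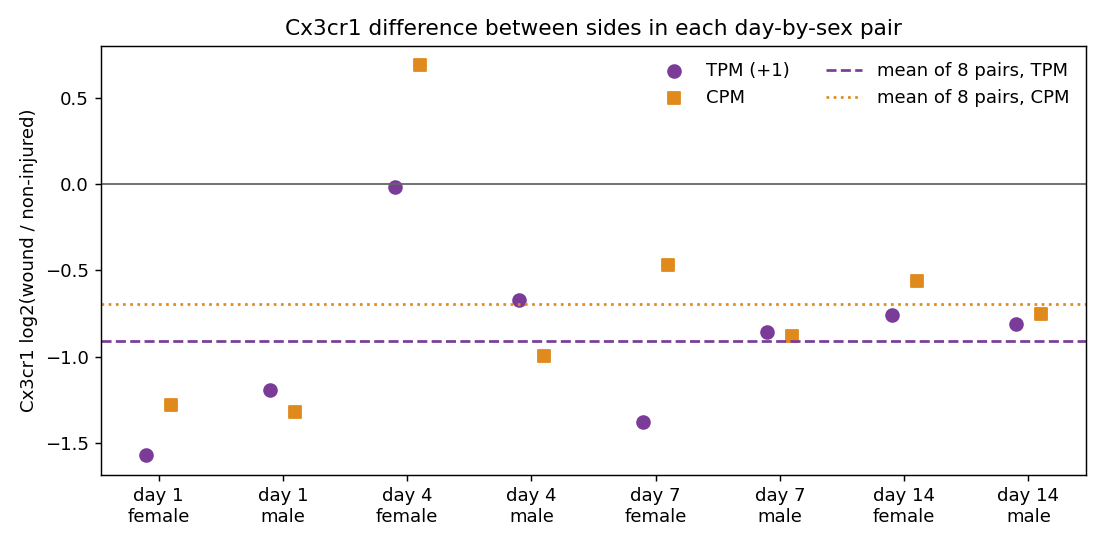
Log2 ratio of Cx3cr1 at the wound over the non-injured side in each of the 8 day-by-sex pairs, from TPM with 1 added (circles) and from CPM (squares), with the mean of the 8 pairs as a dashed line for TPM and a dotted line for CPM. The mean is -0.91 in TPM and -0.70 in CPM, and only the day 4 female pair lies above 0, at 0.69 in CPM.

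Taken day by day, the log2 difference was -1.30 at day 1 (SE 0.45, adjusted p = 0.222), -0.03 at day 4 (SE 0.47, adjusted p = 1), -0.63 at day 7 (SE 0.48, adjusted p = 0.417) and -0.66 at day 14 (SE 0.44, adjusted p = 0.456), all from edgeR. None of these was called, where the same fits called 1.05% of genes at day 1, 2.04% at day 4, 0.374% at day 7 and 0.0594% at day 14. Day 7 moved with the method, to -1.04 with median-ratio factors, -1.04 in DESeq2 and -1.12 in limma on log2(TPM + 1), not called in any. Day 4 moved likewise, to -0.32, -0.41 and -0.34 in the same order, also without a call. At day 1, wound CPM were 0.413 of the non-injured level in females and 0.401 of it in males. The day 4 value joins opposite signs, since its pairs stood at 0.69 and -0.997 in CPM. A joint test of whether the effect differs between days gave an unadjusted p of 0.341 and an adjusted p of 0.746 in edgeR, and no gene passed that test (0 of 28597, with 1819 at an unadjusted p under 0.05). The female minus male difference of the effect was 0.61 (SE 0.50, adjusted p = 0.686), a test that also called 0 genes (2737 at an unadjusted p under 0.05), and it was -0.01 without the day 4 female pair.

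In the authors' deposited tables for both sexes, the log2 fold change of Cx3cr1 was -1.19 at day 1 (adjusted p = 0.421), 0.18 at day 4 (adjusted p = 0.935), -1.08 at day 7 (adjusted p = 0.372) and -0.63 at day 14 (adjusted p = 0.707). Their tables within a sex, which set 2 columns against 2 columns, gave -1.42, 0.25, -1.08 and -0.58 for the females of days 1, 4, 7 and 14 in the authors' deposited tables. For males of the same days the authors' deposited tables gave -1.06, -1.15, -1.11 and -0.76. The adjusted p in the authors' deposited tables within a sex was between 3.24e-47 and 5.48e-07, where the columns compared differ by about counting noise.

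Across days within a side, the order of the levels differed between females and males. In females, CPM at the wound were 12.04, 219, 22.6 and 72.5 at days 1, 4, 7 and 14, and on the non-injured side 29.1, 136, 31.3 and 107. In males, CPM at the wound were 15.8, 5.36, 2.84 and 21.3 on these days, and on the non-injured side 39.4, 10.7, 5.23 and 36.0. Females thus peaked at day 4, whereas males were low at days 4 and 7 and highest at day 1 on the non-injured side. On each side, females were lower than males at day 1 and higher at days 4, 7 and 14, with 40.8 times the male CPM at the day 4 wound and 12.7 times on the non-injured side. A day 4 gap in this direction was not particular to Cx3cr1, but at the wound it was wider for Cx3cr1 than for Csf1r and P2ry12. TPM there were 51.6 in females against 0.984 in males for Cx3cr1, 2793 against 281.9 for Csf1r and 892.4 against 204.3 for P2ry12. On the day 4 non-injured side, the receptor gene Csf1r had 8375 TPM in females against 386 in males, and P2ry12 8137 against 463. At day 14 the order was reversed there for Csf1r, at 754.3 against 2472 TPM. The day 4 male non-injured library had 25.7% mitochondrial counts and the lowest microglial marker sum of its side, 9892 CPM. With 1 library for each day, sex and side, these differences between females and males were not tested. Day did not pass the test on either side in edgeR with sex in the model, at an adjusted p of 0.827 for the wound libraries and 1 for the non-injured ones. Those fits called 0.104% of 22040 genes and 0% of 24622 genes, with 1429 and 352 genes at an unadjusted p under 0.05.

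Beside other receptors the level was low in these heterozygous animals, and the part of the modified copy in it was not tested. Of 83 receptor genes listed, Cx3cr1 ranked 60 at the wound and 51 on the non-injured side by median TPM. At the wound P2ry12, the receptor by which microglia sense ADP, had a median of 581 TPM, and Csf1r, the receptor that keeps microglia alive, 1040 TPM. On the non-injured side the medians were 6154 TPM for P2ry12 and 2678 TPM for Csf1r. In no library was Cx3cr1 among the upper 40 receptors: its rank ran from 47 to 67 at the wound and from 41 to 65 on the non-injured side. Its neighbours in the order by medians on the non-injured side were Cd200r1 at 19.5 TPM, above Cx3cr1 in 4 of 8 libraries, and Cd300lf at 14.6 TPM, above it in 4 of 8. At the wound both stood above Cx3cr1, in 7 and 8 of 8 libraries. Among the 60 receptors whose mean reached 10 CPM, the SD of log2 CPM over libraries ranked Cx3cr1 3 at the wound (SD 1.86) and 12 on the non-injured side (SD 1.48), counted from the most variable.

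**Figure D3:**
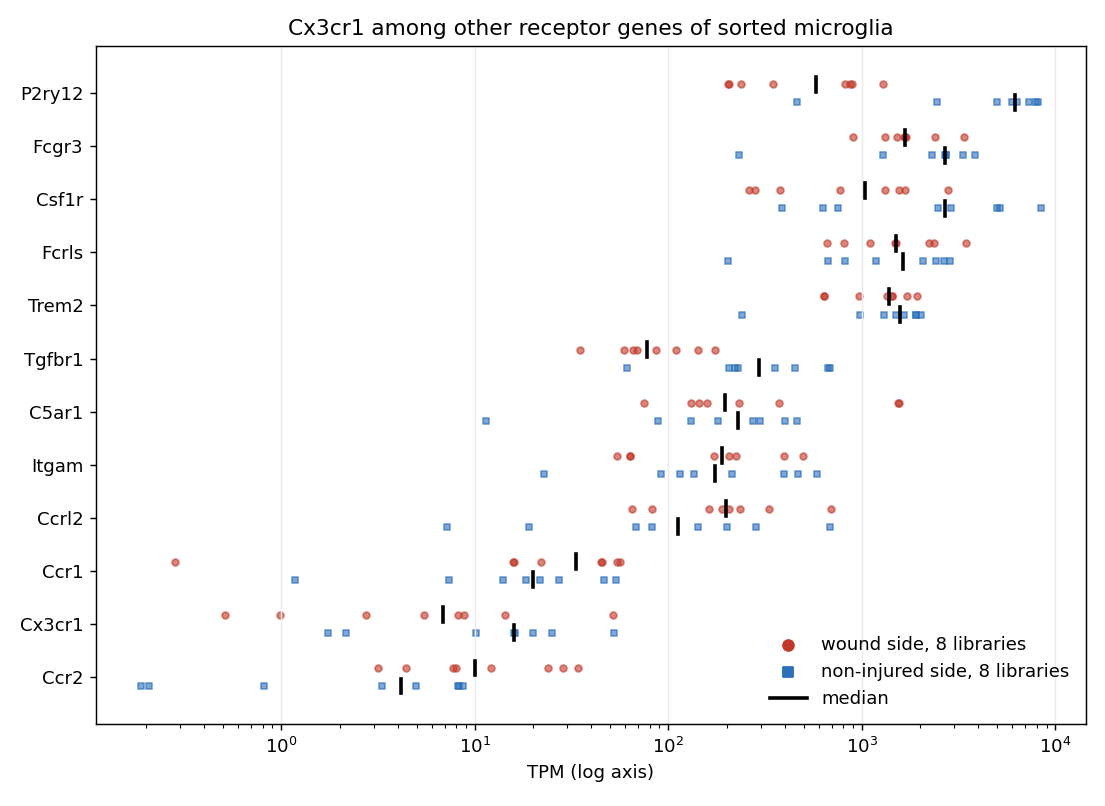
TPM on a log axis of Cx3cr1 and 11 other receptor genes in the 8 wound libraries (circles, upper row of each gene) and the 8 non-injured libraries (squares, lower row), with the median as a bar. Cx3cr1 has medians of 6.82 TPM at the wound and 16.01 TPM on the non-injured side, well under those of P2ry12, Csf1r and Trem2.

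Apart from the 1 added, a ratio of 2 genes within a library does not depend on the library's scaling factor, so Cx3cr1 was also set against 6 receptors. These 6 were chosen with earlier results of these data known, and each ratio also carries the other receptor's own change. Their p-values are therefore descriptions of the ratios, not separate support for a change of Cx3cr1. Cx3cr1 gained on P2ry12 and lost on C5ar1. Log2 of Cx3cr1 over P2ry12 (each TPM with 1 added) averaged -6.12 at the wound and -8.35 on the non-injured side. The difference was 2.23 ± 1.19 (SD, n = 8), above 0 in 8 of 8 pairs, with an exact two-sided sign-flip p of 0.00781 and an adjusted p of 0.0234 over the 6 receptors. P2ry12 had 204.3 to 1281 TPM at the wound against 463.2 to 8137 TPM on the non-injured side, and the shift was largest at day 1 in males (3.75) and smallest at day 4 in males (0.51). P2ry12 itself had a log2 difference of -2.50 in edgeR (SE 0.22, adjusted p = 0.000275), against the -0.65 of Cx3cr1.

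C5ar1 encodes the receptor for the complement fragment C5a, which draws phagocytes. Log2 of Cx3cr1 over C5ar1 averaged -5.38 ± 2.27 at the wound and -3.62 ± 1.49 on the non-injured side (SD, n = 8). The difference was -1.77 ± 1.63 (SD, n = 8), below 0 in 8 of 8 pairs, with the same exact p of 0.00781 and adjusted p of 0.0234. It came mostly from day 1, at -3.29 in females and -3.57 in males, and from the day 4 male pair, at -4.21, while the other 5 pairs lay between -1.14 and -0.34. At day 1 C5ar1 had 1528 and 1559 TPM in the female and male wound libraries, against 463.2 and 299.3 TPM on the non-injured side. In the day 4 male pair it had 143.8 TPM against 11.44 TPM. The latter is its lowest non-injured value, in the library with 25.7% mitochondrial counts. C5ar1 itself had a log2 difference of 1.39 in edgeR (SE 0.25, adjusted p = 0.00545) and was not called in limma on log2(TPM + 1).

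The remaining 4 receptors moved less against Cx3cr1. Relative to Tgfbr1, a receptor chain for the TGF-beta signal of resting microglia, Cx3cr1 shifted by 0.88 ± 0.94 (SD, n = 8, exact two-sided sign-flip p = 0.0234, adjusted 0.0469, above 0 in 7 of 8 pairs). That call was lost with 0.1 in place of 1 added to TPM (0.68, adjusted p = 0.112) and with CPM (0.67, adjusted p = 0.112). Relative to Csf1r the shift was 0.40 ± 0.58 (SD, n = 8, exact two-sided sign-flip p = 0.0625, adjusted 0.075), above 0 in 6 of 8 pairs. Against Trem2, a lipid-sensing receptor of microglia, it was -0.82 ± 1.04 (SD, n = 8, exact two-sided sign-flip p = 0.0781, adjusted 0.0781), and against Itgam, the CD11b integrin chain, -0.76 ± 0.82 (SD, n = 8, exact two-sided sign-flip p = 0.0469, adjusted 0.0703). These 3 did not pass the adjustment.

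**Figure D4:**
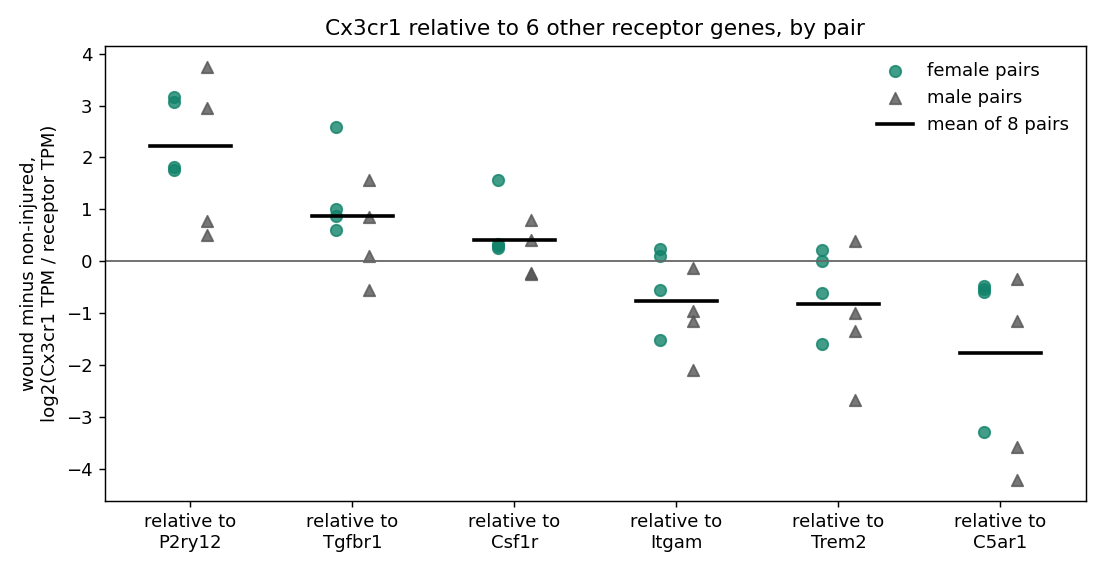
Wound minus non-injured difference in log2 of Cx3cr1 TPM over the TPM of 6 other receptors (1 added to each), with female pairs as circles, male pairs as triangles and the mean of 8 pairs as a bar. All 8 pairs lie above 0 for P2ry12 (mean 2.23) and below 0 for C5ar1 (mean -1.77).

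Of the ligand and its proteases, the ligand gene fell. Cx3cl1, which encodes fractalkine, had 0.283 to 12.6 TPM in the wound libraries (median 1.41) against 9.19 to 112 TPM in the non-injured ones (median 19.8). All 8 pairs had the lower TPM at the wound, although the highest wound library, day 14 male, was above 2 of the non-injured ones. Its log2 difference was -3.41 in edgeR (SE 0.40, adjusted p = 0.00094). Beside it, the summed level of 6 neuron markers had a median of 25.4 CPM at the wound (6.63 to 108.3) against 118 CPM on the non-injured side (36.8 to 1939), was lower in 8 of 8 pairs, and no marker was at 0 in all libraries. The highest values of both Cx3cl1 and these markers were in the day 4 male non-injured library. Endothelial and mural markers were also lower at the wound in 8 of 8 pairs, at a median of 118.6 CPM against 250.1 CPM, and oligodendrocyte lineage markers in 7 of 8, at 771 CPM against 1218 CPM. Astrocyte markers, at 479 CPM against 548 CPM, were lower in 5 of 8. The part of RNA from these cell types in the level of Cx3cl1 was not tested. The sheddase genes Adam10 (log2 0.13, adjusted p = 0.792) and Adam17 (0.54, adjusted p = 0.107) and Ctss, the cathepsin S gene of microglia (0.59, adjusted p = 0.124), were not called in edgeR.

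Of 12 genes that act below the receptor, 1 rose, 2 fell and 9 were not called. Over all genes tested 7.76% were called higher and 7.96% lower. The median log2 difference was 0.10 for the 12 genes, against -0.32 over all genes tested. Grk3, a kinase gene that desensitizes G protein-coupled receptors, fell by 1.24 (SE 0.29, edgeR adjusted p = 0.0192) and averaged 14.8 CPM at the wound against 34.2 CPM, lower in every pair. Gnai1, an inhibitory G protein gene with under 10 CPM on average, fell by 2.23 (edgeR adjusted p = 0.0107). Its relative Gnai2 rose by 0.60 (SE 0.17, edgeR adjusted p = 0.0367), a call lost with median-ratio scaling (adjusted p = 0.0577) and in limma on log2 TPM, where its difference was 0.00 (adjusted p = 0.997). In limma on log2(TPM + 1), 6 of the 12 genes were called lower and 0 higher, with a median of -0.49, where 3279 of all 28597 genes were called lower and 1092 higher. The arrestin genes Arrb1 (log2 -0.67, adjusted p = 0.331) and Arrb2 (0.28, adjusted p = 0.404) were not called in edgeR.

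Among chemokine receptors, Cx3cr1 was 1 of 5 with a mean of at least 10 CPM. Of the 24 listed, Cx3cr1 included, 5 rose, 2 fell and 17 were not called, where 15.7% of all genes tested were called. Ccr2, the receptor that brings monocytes into tissue, rose by 2.81 (SE 0.24, edgeR adjusted p = 0.000232), with 3.17 to 34.1 TPM at the wound against 0.188 to 8.65 TPM on the non-injured side, and its CPM was higher in 8 of 8 pairs. The day 1 female pair had the reverse order in TPM, 7.99 against 8.65. Ccrl2, an atypical receptor that binds chemerin, rose by 1.55 (SE 0.26, edgeR adjusted p = 0.00426), its CPM likewise higher in every pair, while TPM of the day 1 female pair were 205.3 at the wound against 283.1. Ccr1, a receptor for inflammatory CC chemokines, was not called in edgeR (log2 0.79, adjusted p = 0.256). The remaining called receptors, all under 10 CPM on average, were Ccr7, Cxcr2 and Cxcr4, which rose, and Ccr1l1 and Ackr3, which fell. By mean TPM, Cx3cr1 had 11.59 at the wound and Ccr2 15.25, whereas on the non-injured side they had 17.91 and 4.33 TPM.

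Monocyte markers moved with these receptors. The 8 classical monocyte markers, which include Ccr2, summed to a median of 113 CPM at the wound (20.9 to 257.9) against 12.3 CPM (1.23 to 36.1), higher in 8 of 8 pairs. The 8 non-classical monocyte markers summed to 183 CPM (73.8 to 866.6) against 89.4 CPM (46.4 to 226.7), higher in 7 of 8 pairs. Nr4a1 had the highest mean of the 8, at 210 CPM at the wound against 90.6 CPM, and was not called in edgeR. Of the 8, 3 were called higher and 5 were not called, where 7.76% of all genes tested were called higher. Eno3, not called, had the lower mean at the wound, 10.6 CPM against 16.5 CPM. Cx3cr1 is itself known to be high in these monocytes. Border-associated macrophage markers had a median of 896 CPM at the wound (113 to 3489) against 311 CPM (22.6 to 668.7). Of these 8, 4 were called higher in edgeR and 4 were not called. Ms4a7, called higher, had the highest mean at the wound, 612.9 CPM against 67.5 CPM. Mrc1, Cd163 and Lyve1 had lower mean CPM at the wound and were not called. Microglial markers summed to a median of 17160 CPM at the wound against 31300 CPM, and were higher in 1 of 8 pairs. Neutrophil markers had medians of 78.5 CPM and 1.39 CPM, and T and NK cell markers 9.44 CPM and 1.36 CPM, for the wound and the non-injured side. No marker of these lists was at 0 in all libraries. Their part in the level of Cx3cr1 was not tested.

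Over all 82 receptors other than Cx3cr1, chemokine receptors included, 29 rose, 14 fell and 39 were not called, with a median log2 difference of 0.36. Over all genes tested 7.76% were called higher and 7.96% lower, and of the 9025 genes whose mean reached 10 CPM, 1853 were called higher and 857 lower, with a median of 0.20. Of the 59 receptors past that mean, 25 rose and 12 fell. In limma on log2(TPM + 1), 18 of the 82 were called higher and 19 lower with a median of -0.07, where 1092 of all 28597 genes were called higher and 3279 lower with a median of -0.17. The class counts that follow are descriptions against these shares, and no test compared the classes. Among the 7 nucleotide and adenosine receptors, 4 fell and 1 rose: P2ry13, an ADP receptor, fell by 1.57, Gpr34, a lysophosphatidylserine receptor, by 1.41, and P2rx4, an ATP-gated channel, rose by 1.60 (edgeR adjusted p between 0.000275 and 0.0221 for the 5). Of the 11 growth factor and cytokine receptors, 5 fell and 4 rose, with Tgfbr1 lower by 1.31 and Csf2ra, a receptor chain for GM-CSF, higher by 1.89. In limma on log2(TPM + 1) only 1 of these 4 rises was called. Of 5 complement receptors and integrins, 4 rose, among them Itgax (2.35), the CD11c integrin chain, and C5ar1 (1.39), and in limma on log2(TPM + 1) 2 of the 5 were called. C5ar1 was not among them (log2 0.86, adjusted p = 0.0712).

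The remaining classes held more rises than falls in edgeR. Of 10 immunoglobulin-type, lectin and Fc receptors, 5 rose and 2 fell, with Clec7a, which binds fungal glucan, higher by 4.15 and Siglech, a sialic acid binding receptor of microglia, lower by 2.12. Of 6 pattern recognition receptors, 3 rose, including Tlr2 (2.22) and Cd14 (2.03), which sense bacterial lipoproteins and lipopolysaccharide. Of 5 phagocytic receptors, 3 rose, led by the scavenger receptor Msr1 (4.88), and Mertk, which binds dying cells, fell by 0.61. Of 5 inhibitory receptors only Lilrb4a was called (4.92), and of 10 lipid and other G protein-coupled receptors 3 rose, with the prostaglandin receptor Ptger4 at 3.95. In limma on log2(TPM + 1), 3 of the last 10 were called lower and 1 higher. The immunoglobulin-type, lectin and Fc receptors then split into 2 higher and 2 lower. The lists and their members were chosen with earlier results of these data known.

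The genes whose pattern over libraries was most like that of Cx3cr1 were found by Spearman's rho of CPM over the 16 libraries, among the 8689 protein-coding genes whose mean reached 10 CPM. Among the leading 8 were Plxdc2 (rho 0.906), a membrane protein gene with a plexin-like domain, Fchsd2 (0.894), an adaptor gene of endocytosis, Bcor (0.888), a transcriptional corepressor gene, Dido1 (0.879), Sowahc (0.871), Ankrd44 (0.862) and Mef2c (0.859), a transcription factor gene. Over all genes compared, rho had a median of 0.0353 and lay between -0.494 and 0.599 for the middle 90%. Pearson's r of log2(CPM + 1) was 0.871 for Plxdc2 and between 0.811 and 0.858 for the remaining 6 named. The 16 points share pairs, days and depth, so rho is a description. These genes were chosen for their level over libraries. For the difference between sides, r of the 8 pair log2 ratios lay between 0.205 (Dido1) and 0.673 (Fchsd2).

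These genes varied less than Cx3cr1. Their highest over lowest CPM was 4.74 for Mef2c to 7.89 for Bcor, where that of Cx3cr1 was 77.05. Plxdc2 averaged 298 CPM at the wound and 465 CPM on the non-injured side, and in edgeR it fell by 0.69 (SE 0.16, adjusted p = 0.0169), close to the -0.65 of Cx3cr1 with a smaller SE. Fchsd2 fell by 1.03 (adjusted p = 0.00659), Mef2c by 0.74 (adjusted p = 0.0151) and Bcor by 0.75 (adjusted p = 0.0459) in edgeR, with lower CPM in every pair. Dido1, Sowahc and Ankrd44 were not called, at edgeR adjusted p of 0.0668 to 0.652. Among receptors the nearest were Lpar5, for lysophosphatidic acid (rho 0.803, rank 32), Siglech (0.797) and Mertk (0.794). P2ry12 stood at 0.574, Csf1r at 0.674, Trem2 at 0.256 and C5ar1 at 0.0176. The summed microglial markers had a rho of 0.668 with Cx3cr1, and the classical monocyte markers -0.468.

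**Figure D5:**
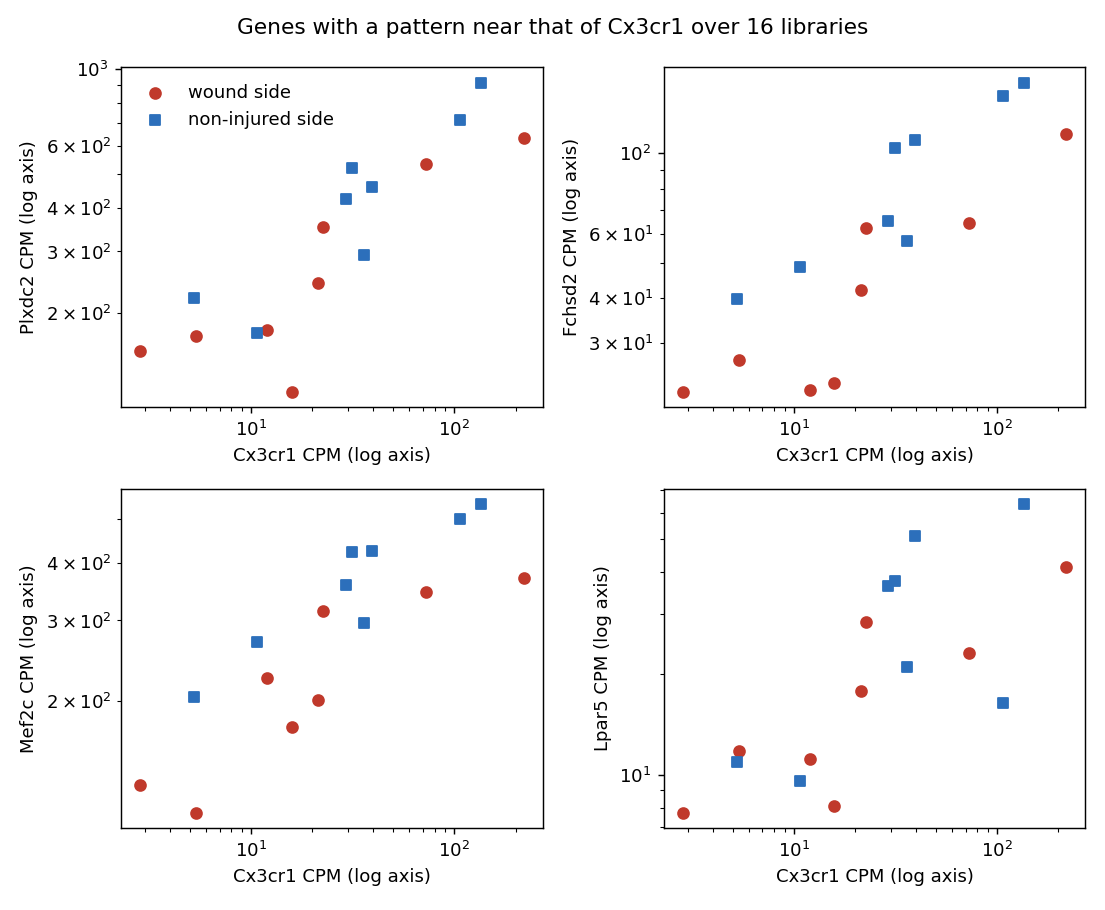
CPM of Plxdc2, Fchsd2, Mef2c and Lpar5 against CPM of Cx3cr1 in the 16 libraries, all on log axes, with wound libraries as circles and non-injured libraries as squares. The levels rise together over the 16 libraries (Spearman's rho 0.906, 0.894, 0.859 and 0.803), with the day 4 female libraries at the right end.

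At the locus itself, the annotated span of Cx3cr1 holds other genes, because 1 of its transcripts reaches a 12-base exon at 119901616. Wdr48, Gorasp1 and Csrnp1 lie in that span or overlap its end, at means of 11.2, 11.3 and 12.9 TPM at the wound against 19.3, 11.9 and 16.5 TPM, and none was called in edgeR (adjusted p 0.781, 0.317 and 0.35). Gm33858, an antisense gene from 120068996 to 120070622 that overlaps the first exon of another transcript of Cx3cr1, had 3.6 TPM at the wound against 15.4 TPM on the non-injured side (log2 -1.34, SE 0.52, edgeR adjusted p = 0.119). The library kit does not keep strand, so reads of the 2 genes in the shared stretch cannot be told apart. Of the genes tested within 100000 bases, 2 were called in edgeR, where 15.7% of all 28597 genes tested were called. Rpsa, a ribosomal protein gene, rose by 1.45 (adjusted p = 0.00637), and Mobp, a myelin protein gene, fell by 1.12 (adjusted p = 0.00387). Ccr8, the nearest other chemokine receptor gene at 22235 bases, had at most 1.09 TPM in any library and was not called (edgeR adjusted p = 0.618).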

How the data were processed

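The values are expected counts, estimated reads per gene that the authors deposited without normalization, and TPM, which the authors also deposited. The authors' deposited comparison tables hold log2 fold changes, their standard errors as a score, and p-values with adjusted p-values, while their deposited normalized counts (a signal) were not used here. Salmon 1.0.0 and DESeq2 1.26.0 are listed, without a role, per the submitters' processing notes. No build or annotation is given in the sources used here. Of 55385 identifiers, 54487 are in GENCODE M21 (GRCm38), which gave coordinates. RNA was copied with SMART-Seq v4 and libraries made with Nextera XT, per the labels' protocols.

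The 2 columns of each group, 32 in all, were summed and rounded (TPM averaged). Counts were fitted in R 4.3.3 with edgeR 4.0.16 (quasi-likelihood, TMM, filterByExpr at a minimum count of 10 on day and side, 28597 genes), with 8 pair means and 4 day effects of injury, 4 residual and 5.32 prior degrees of freedom. A gene was called when its p, adjusted by Benjamini-Hochberg over every gene tested, was below 0.05. Alternatives were median-ratio factors, no filter, DESeq2 1.42.0, limma 3.58.1 on log2(TPM + 1) or log2(TPM + 0.1), 32 separate columns with and without a replicate block, 1 column of each group, leaving out pairs or libraries, and, added after values were seen, dispersions estimated before the fit. The correlation between sides was also added then. Single values were tested by exact sign flips or permutations in Python with scipy. Promoter windows are from RefSeq tables of GRCm38.p6, in which all 3 genes were found. Equal replicate numbers on the 2 sides deviated with a correlation of -0.0176 to 0.0497, so they were not taken as pairs. Named list members are the called ones at a mean of at least 10 CPM with the largest change, up to 4 in each list, not all of which are printed, and Gnai1, Ccr7, Cxcr2, Cxcr4, Ccr1l1, Ackr3 and the uncalled genes named were chosen after their values were seen. The gene, the lists and the 6 receptors for ratios were chosen with earlier results of these data known. A receptor and a gene of like pattern are not reported here.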

Additional observations from a re-analysis of the deposited data

Results flagged for a closer look

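The level of Cx3cr1 in the day 4 female libraries stood apart from the other 7 of its side, in CPM and TPM at the wound and in TPM only on the non-injured side. It was 219 CPM and 51.6 TPM at the wound, and 52.2 TPM on the non-injured side, each with a gap to the next library larger than Dixon's criterion at 95% allows for 8 values. The log2 ratio of that pair, 0.688 in CPM, stood apart from the other 7 pairs by the same criterion. Of 18 groups of values examined, 4 had such a gap. All 4 belong to the day 4 female pair, in measures that depend on each other. The levels also entered without logs, over ranges of 30.04-fold to 101.3-fold, which widens a gap at the upper end. The rate of about 1 of 20 that the criterion sets holds for independent, evenly spread groups, so the 4 cannot be set against it.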

How the results depend on the processing

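Over 354 recomputations of 22 results, 301 kept direction and side of the threshold. The mean over days, -0.654 and not called in edgeR, was below 0 in every alternative and was called in 7 of the 8 that kept all samples: DESeq2 gave -0.833, dispersions estimated before the fit -0.691 (adjusted p = 0.0366), median-ratio factors -0.809, limma -0.907 with 1 and -1.12 with 0.1 added to TPM, and 32 separate columns -0.747 without the block and -0.756 (adjusted p = 3.53e-05) with the replicate block. Without the filter on low counts it was -0.566 (adjusted p = 0.276). Leaving out a pair or a column of each group gave -0.918 to -0.466, called without the day 4 or day 14 female pair and with only 1 column of each group (adjusted p = 0.04 and 0.033). Day 1 was called in DESeq2 (-1.22) and in 32 columns (-1.36 with and without the block), day 7 in 32 columns (-0.845, and -0.855 with the block), and day 14 likewise (-0.689 in both). The difference between days then had an adjusted p of 0.00174 (0.0357 with the block), and days at the wound one of 0.0417 without the block. Those fits take columns that differ by counting noise as samples, and with replicate numbers that do not pair the samples.

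Reversed were the female minus male difference in limma with 1 added (-0.0503), and in fits that left out a pair (-0.0125 to 0.887), and day 4 (-0.896 to 0.688). Steps between days within a side, none called in edgeR on 16 libraries, also reversed. On the non-injured side day 4 minus day 1, 0.00117, was -0.046 in DESeq2, -0.0193 with estimated dispersions, -0.022 with median-ratio factors, -0.234 and -0.396 in limma, -0.0417 and -0.0418 in 32 columns, and -1.28 to 1.8 without a library. At the wound it was -1.22 to 3.5, and day 7 minus day 4 was -3.7 to 0.25. The ratio to Tgfbr1 lost its call at 0.68 (0.1 added) and 0.671 (CPM), and in 7 of 10 fits without a pair or column (0.639 to 1.09), and that to Csf1r was called without the day 4 or day 14 male pair (0.234 to 0.492). The cause was not tested. The lowest library held 78 reads of Cx3cr1, and each day, sex and side has 1 library. Whether depth plays a part was not tested.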
